A study of Homo sapiens with 12 samples.

Results

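The 34 genes described here encode proteins that carry cells through G2 and mitosis. They are the cyclins and entry regulators CCNA2, CCNB1, CCNB2, CCNF, CDK1, CDC25C, PLK1, AURKA and FOXM1, the checkpoint and degradation genes BUB1, BUB1B, TTK, CDC20, UBE2C and PTTG1, the kinesins KIF11, KIF14, KIF18A, KIF20A, KIF23, KIF2C and CENPE, the spindle and cytokinesis genes TPX2, NUSAP1, HMMR, DLGAP5, ANLN and ASPM, and the chromosome genes TOP2A, CENPF, CENPA, MKI67, BIRC5 and AURKB. They were chosen by name for their known roles and not by their values, but with earlier results of these data known. All 34 were found among the 60623 genes of the deposited count table, and all 34 passed the filter on low counts, which left 23684 genes for testing. RNA was sequenced after poly-A selection in 12 libraries, 3 for each of 4 groups. The groups were SW480 cells with the plasmid pCMV6-HKDC1, SW480 cells with the empty vector pCMV6-Entry, COLO320DM cells with pCMV6-HKDC1 and COLO320DM cells with pCMV6-Entry. Both are established human colorectal cancer cell lines, and the plasmid expresses hexokinase domain containing 1 (HKDC1), a member of the glucose-phosphorylating hexokinase family, from the CMV promoter. Every group was transfected with 10 µg of plasmid and Lipofectamine 2000 for 24 h, so the controls also carry a CMV vector. The share of cells that took up plasmid is not given in the sources used here. The study asked which expression changes might accompany proliferation after HKDC1 transfection, and mitotic transcripts are common markers of dividing cells. The time of harvest after the 24 h is not given in the sources used here.

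Transcripts of this kind are low in G1 and peak in G2 and mitosis, so in a bulk culture their level reflects in part how many cells are close to division. CDK1 bound to cyclin A or B drives entry into mitosis, the spindle checkpoint kinases hold the anaphase-promoting complex (APC/C) until every chromosome is attached, and APC/C with CDC20 then tags cyclin B and securin for destruction. In quiescent and G1 cells the DREAM complex represses these genes, and in dividing cells B-MYB with the MuvB core, followed by FOXM1, activates them, acting largely through CHR elements, while the factor NF-Y binds the CCAAT boxes that often lie beside them. In bulk RNA, more dividing cells and more mitotic RNA per cell cannot be told apart.

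The 300 bases around the start of 6 members are shown because they carry the promoter letters by which this gene class is known. They run from 250 bases before to 50 after the gene start, 5′ to 3′ along the gene, from RefSeq on GRCh38.p14. They are the first 6 members, in the order of the list, with a match to a CHR element (TTTGAA or TTCGAA) or a CCAAT box on either strand, and the capitals mark those matches. The windows are chr4:121823834-121824133 on the minus strand, chr5:69166900-69167199 on the plus strand, chr15:59104896-59105195 on the plus strand, chr10:60778081-60778380 on the plus strand, chr1:43358731-43359030 on the plus strand and chr16:23678639-23678938 on the plus strand. The RefSeq start lies 1233 bases from the gene start of the deposited table for PLK1 and at most 50 bases from it for the other 5.
CCNA2: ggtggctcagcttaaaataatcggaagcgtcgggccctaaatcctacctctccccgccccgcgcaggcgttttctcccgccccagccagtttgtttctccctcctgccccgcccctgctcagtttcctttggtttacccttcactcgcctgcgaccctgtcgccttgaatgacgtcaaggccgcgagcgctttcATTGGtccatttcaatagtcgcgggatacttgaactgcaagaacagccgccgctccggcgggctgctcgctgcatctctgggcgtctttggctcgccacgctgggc
CCNB1: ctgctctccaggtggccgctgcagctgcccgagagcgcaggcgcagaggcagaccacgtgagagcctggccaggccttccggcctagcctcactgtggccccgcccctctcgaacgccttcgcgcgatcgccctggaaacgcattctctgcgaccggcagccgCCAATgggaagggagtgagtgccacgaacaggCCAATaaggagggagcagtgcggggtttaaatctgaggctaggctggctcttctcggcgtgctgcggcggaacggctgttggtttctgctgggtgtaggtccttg
CCNB2: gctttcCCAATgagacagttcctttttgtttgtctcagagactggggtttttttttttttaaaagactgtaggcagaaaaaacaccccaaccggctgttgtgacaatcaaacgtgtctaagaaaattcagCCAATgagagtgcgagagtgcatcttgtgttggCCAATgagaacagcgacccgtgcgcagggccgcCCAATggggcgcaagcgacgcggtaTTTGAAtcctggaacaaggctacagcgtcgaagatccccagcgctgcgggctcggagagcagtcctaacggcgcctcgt
CDK1: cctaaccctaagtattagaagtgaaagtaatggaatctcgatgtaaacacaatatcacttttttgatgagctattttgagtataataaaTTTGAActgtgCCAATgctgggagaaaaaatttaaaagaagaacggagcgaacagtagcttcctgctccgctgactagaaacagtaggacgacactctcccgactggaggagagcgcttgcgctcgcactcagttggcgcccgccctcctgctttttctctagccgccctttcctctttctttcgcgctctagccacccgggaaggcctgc
CDC20: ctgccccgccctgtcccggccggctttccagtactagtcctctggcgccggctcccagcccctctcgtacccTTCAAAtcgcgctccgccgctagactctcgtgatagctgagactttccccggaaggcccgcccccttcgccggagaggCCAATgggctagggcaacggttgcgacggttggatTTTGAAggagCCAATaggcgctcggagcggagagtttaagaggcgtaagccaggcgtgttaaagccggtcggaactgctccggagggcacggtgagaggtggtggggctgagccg
PLK1: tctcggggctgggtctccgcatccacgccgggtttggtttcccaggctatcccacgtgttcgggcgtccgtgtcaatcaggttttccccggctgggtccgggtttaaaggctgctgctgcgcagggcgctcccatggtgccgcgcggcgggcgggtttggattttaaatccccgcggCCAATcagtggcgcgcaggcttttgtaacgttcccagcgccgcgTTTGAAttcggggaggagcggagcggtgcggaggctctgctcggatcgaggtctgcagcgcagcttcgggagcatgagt

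CCNB2 holds 4 CCAAT boxes and a single CHR element downstream of them, CDC20 holds 2 of each, and CDK1 and PLK1 hold 1 of each. CCNA2 and CCNB1 hold CCAAT boxes (1 and 2) and none of these CHR letters. Promoter entries were found for 28 of the 34 members, and AURKA, TTK, TPX2, BIRC5, UBE2C and FOXM1 are only named. A CHR match was present in 20 of 28 member promoters (71.4%), beside 16.6% of all 27305 promoters of the same length. A CCAAT match was present in 23 of 28 (82.1%), beside 35.7% of all promoters, and 18 members held both. The CDE letters GGCGG were in all 28, but also in 58.6% of all promoters and 74.1% of the 15843 promoters of protein-coding genes. Among those protein-coding promoters, 13.5% held a CHR match and 36.4% a CCAAT match. The tandem GGCGG, 4 bases, then TTTGAA or TTCGAA was in 0 of 28 members and 0.0659% of all promoters. Matches on both strands were counted, TTCGAA reads the same on both, and GGCGG can lie within a longer run of G and C. A match is a description of letters, not a bound site, and a missing match says only that the letters are not in this window.

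Library totals ranged from 33790733 to 45451279 counts, and members took 0.405% to 0.523% of them. HKDC1 itself had 12230 to 14310 CPM (the count rate of a library after TMM scaling) in the SW480 libraries with the HKDC1 plasmid, against 34.1 to 38.4 CPM with empty vector. In COLO320DM it had 6580 to 9640 CPM with the plasmid, against 0 to 0.0238 CPM with empty vector, so all 12 libraries matched their plasmid label. Replicate 1 stood apart from replicates 2 and 3 in every group. Between libraries of a group, the chi-square per degree of freedom was 24.5 to 82.8 for replicate 1 against either of the others, and 3.18 to 10.1 for replicate 2 against replicate 3. The 8 colon epithelial markers summed to 6580 to 9490 CPM in SW480. In COLO320DM they summed to 1580 to 1790 CPM, mostly from CDX2, with KRT8 at 136 CPM and KRT18 at 90.2 CPM, and CDH1 and KRT19 at a mean under 0.1 CPM and EPCAM at 1.81 CPM (means with empty vector). The neuroendocrine markers reached 61.8 to 83.1 CPM in SW480 and 28 to 39 CPM in COLO320DM, mostly from ENO2 (62.7 and 28.5 CPM). SYP (4.81 and 2.04 CPM) and NCAM1 (2.43 and 0.525 CPM) were also higher in SW480. CHGB went the other way (0.468 and 2.01 CPM), as did CHGA (0.108 and 0.338 CPM) and SCG2 (0.0579 and 0.094 CPM). INSM1 was at 0.106 CPM in SW480 and 0 in COLO320DM (all means with empty vector). Fibroblast markers summed to 18 to 22.1 CPM in SW480 and 39.9 to 64.7 CPM in COLO320DM (mostly COL3A1). Leukocyte markers summed to 1.33 to 2.16 CPM in SW480 and 32.5 to 42.7 CPM in COLO320DM (mostly PTPRC), and endothelial markers to at most 1.17 and 0.231 CPM. MYC and PVT1 summed to 819 to 1040 CPM in SW480 and 4430 to 4720 CPM in COLO320DM.

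All 34 members were well expressed in both lines. Per kilobase of exon, the median member had 26.4 CPM in SW480 with HKDC1, 25.1 CPM in SW480 with empty vector, 25.2 CPM in COLO320DM with HKDC1 and 24.4 CPM in COLO320DM with empty vector. That level lay above 90.4% to 91.1% of the tested genes, whose median was 2.56 to 2.69 CPM per kilobase. TPX2, which nucleates spindle microtubules and activates Aurora A, ranked first per kilobase in all 4 groups, with 102 ± 15.1 CPM per kilobase in SW480 with HKDC1, against 98.8 ± 17.8 with empty vector, and 106 ± 3.95 against 104 ± 2.26 in COLO320DM (SD, n = 3 each). UBE2C, the ubiquitin-conjugating enzyme of the APC/C, and TOP2A, the DNA-untangling topoisomerase, followed in each group. With the longest transcript as the length instead, UBE2C came first in all 4 groups and TPX2 lay at rank 2 or 3. At the low end, KIF14 had 7.76 ± 1.505 CPM per kilobase in SW480 with HKDC1 and 5.10 ± 0.601 in COLO320DM with HKDC1. CCNF, the F-box cyclin, was lowest in SW480 (6.75 ± 1.31 with empty vector) when the length was that of the merged exons, and CENPE (7.197 ± 1.25) and KIF14 (7.28 ± 1.53) did not differ from it beyond their SD. With the longest transcript as the length, KIF14 was lowest in all 4 groups and CCNF lay at rank 31 of 34 in SW480.

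**Figure D1:**
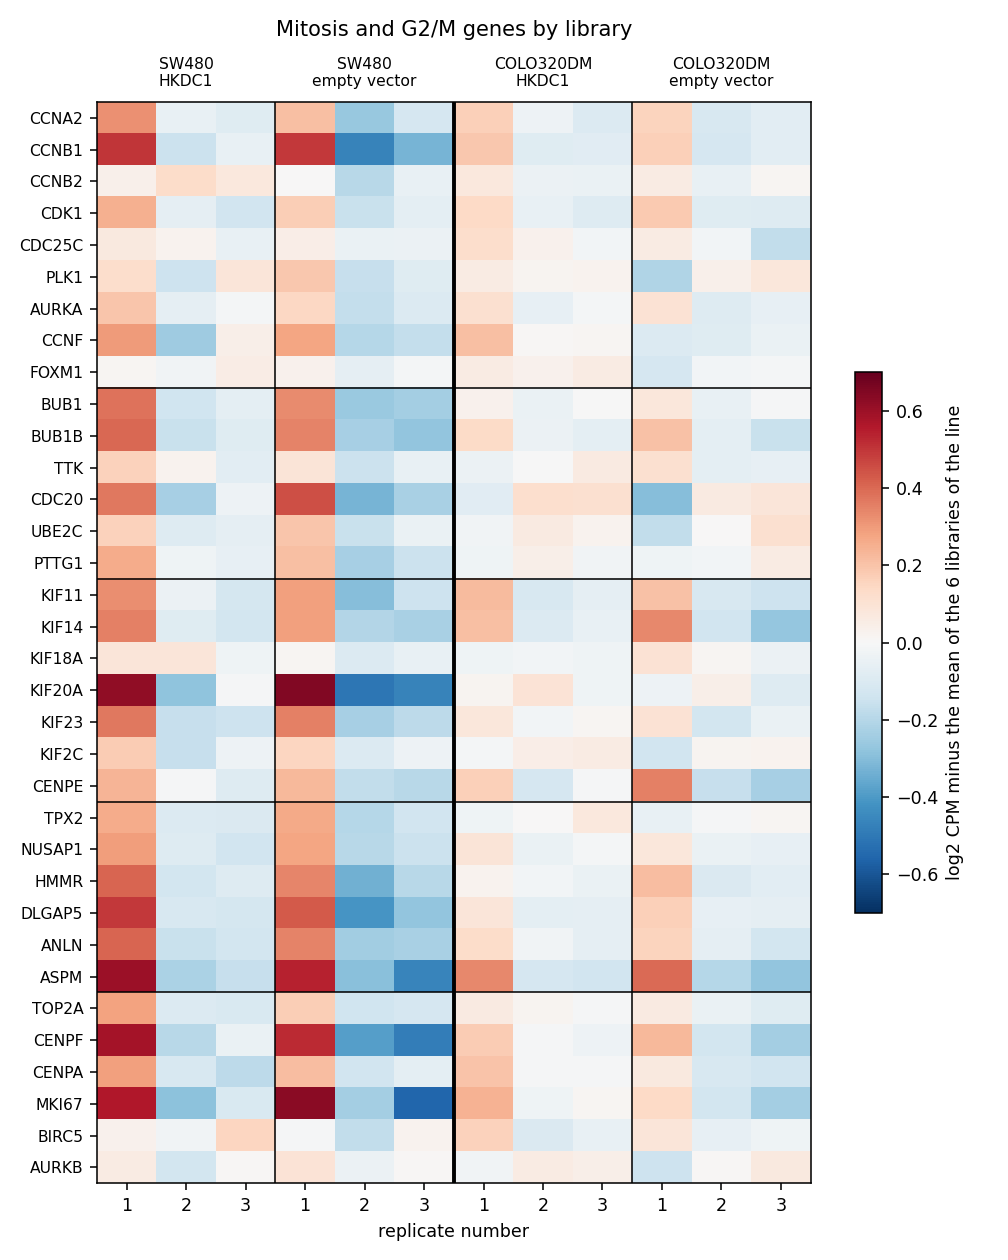
The 34 members are rows, grouped by role from entry regulators at the top to chromosome genes at the bottom, and the 12 libraries are columns. Colour is the log2 CPM of a library minus the mean of the 6 libraries of its line, from blue (lower) to red (higher). Replicate 1 forms a red column in both SW480 plasmid groups, and the HKDC1 and empty-vector columns of the same replicate number look alike.

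The first comparison asked whether HKDC1 changed the mitotic genes. No member passed the test in either line. In SW480, 30 of 34 members were higher with HKDC1 and the median log2 fold change was 0.077, and in COLO320DM 27 of 34 were higher with a median of 0.030. Over all tested genes 49.8% were higher in SW480 and 47.3% in COLO320DM, with medians of 0.000 and −0.001. The COLO320DM count depended on scaling, and all genes moved with it. With library totals only, 17 of 34 members were higher there, beside 37.8% of all genes, with a median of 0.001 beside −0.029 for all genes. SW480 still had 30 of 34 higher, beside 42% of all genes, with a median of 0.052 beside −0.023. The test called 0 of 34 members in each line (edgeR quasi-likelihood test, Benjamini-Hochberg adjusted p under 0.05), beside 0.0127% of all genes in SW480 and 0.00844% in COLO320DM. Nor did any member reach an unadjusted p under 0.05, beside 356 of all 23684 genes in SW480 and 312 in COLO320DM. The count of members called was 0 as well in DESeq2 and limma-voom fits, whether or not replicate numbers were paired. The 95% intervals reached a median of 0.3 on the log2 scale to either side of the estimate.

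CCNB2, a B-type cyclin partner of CDK1, had the smallest p among members in SW480, with 93.6, 99.8 and 96.1 CPM in the HKDC1 libraries, against 91.4, 79.6 and 87.8 CPM with empty vector. Every HKDC1 library lay above every empty-vector library (1.12-fold, 95% interval 0.992 to 1.26, log2 fold change 0.16, SE 0.08, adjusted p = 1). It was the 1 member of 34 whose SW480 groups did not overlap in that direction, beside 2.16% of all genes, and 0 were separated in the other direction (2.28% of all genes). KIF18A, a kinesin that dampens chromosome oscillations, had 53.9, 53.9 and 49.8 CPM in the HKDC1 libraries, against 51.3, 47.6 and 49.1 CPM with empty vector. BIRC5 (survivin), the chromosomal passenger subunit, had 92.6, 89.0 and 101 CPM in the HKDC1 libraries, against 89.9, 80.4 and 92.1 CPM with empty vector. For both genes the groups overlapped (log2 fold changes 0.09 and 0.10, adjusted p = 1). Among the 4 members with lower means, AURKB, the passenger complex kinase, had 80.2, 70.5 and 77.4 CPM in the HKDC1 libraries, against 82.4, 74.8 and 77.6 CPM with empty vector. Its 2 groups overlapped. KIF2C, a microtubule-depolymerizing kinesin, had 105, 83.5 and 91.0 CPM in the HKDC1 libraries, against 103, 87.3 and 90.8 CPM with empty vector. UBE2C had 129, 108 and 110.3 CPM in the HKDC1 libraries, against 132, 104 and 112 CPM with empty vector. The log2 fold changes were −0.04 for AURKB, −0.01 for KIF2C and −0.0007 for UBE2C (adjusted p = 1), and all 3 changed sign when single libraries were left out, within −0.106 to 0.101.

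In COLO320DM, 2 members had groups that did not overlap, both higher with HKDC1, beside 3.52% of all genes, and 0 were separated in the other direction (4.22%). FOXM1, the transcription factor that activates G2/M genes, had 209.9, 206 and 209.6 CPM in the HKDC1 libraries, against 186, 199 and 199.7 CPM with empty vector. CCNF had 71.3, 62.0 and 62.1 CPM in the HKDC1 libraries, against 57.7, 58.0 and 59.6 CPM with empty vector. Their log2 fold changes were 0.10 (SE 0.07) and 0.16 (SE 0.14), with adjusted p = 1 for both. Without HKDC1 replicate 1 the CCNF value was 0.088. CDC25C, the phosphatase that activates CDK1, had 25.0, 23.4 and 22.6 CPM in the HKDC1 libraries, against 23.8, 22.6 and 20.3 CPM with empty vector, so its groups overlapped. Among the 7 members with lower means, KIF18A had 38.8, 39.1 and 38.8 CPM in the HKDC1 libraries, against 42.4, 40.039 and 38.5 CPM with empty vector (−0.05). HMMR, a hyaluronan receptor that also acts at the spindle, had 81.1, 78.9 and 77.3 CPM in the HKDC1 libraries, against 92.9, 74.6 and 75.8 CPM with empty vector (−0.04). CCNB2 had 111, 103 and 103 CPM in the HKDC1 libraries, against 110.2, 102 and 107 CPM with empty vector (−0.01). The groups overlapped in all 3 (adjusted p = 1). The lower values of HMMR and CCNB2 changed sign when single libraries were left out (ranges −0.092 to 0.073 and −0.053 to 0.012). The edgeR test of the difference in plasmid effect between the lines, SW480 minus COLO320DM, called 0 members (background 0.00844%), and none reached an unadjusted p under 0.05. The count was also 0 in DESeq2 and in limma-voom. The median difference was 0.06, and the intervals of the members lay within −0.906 to 0.953. The plasmid difference followed GC content, with Spearman's rank correlation over 7876 genes in the members' range of levels of −0.29 in SW480 and 0.54 in COLO320DM, and of −0.43 and 0.57 over the 34 members. A mean curve on length and GC was fitted to those 7876 genes. Above it lay 30 of 34 members in SW480 (median 0.065) and 32 of 34 in COLO320DM (median 0.055). The share of all genes above the curve is not given here, so these counts have no background.

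**Figure D2:**
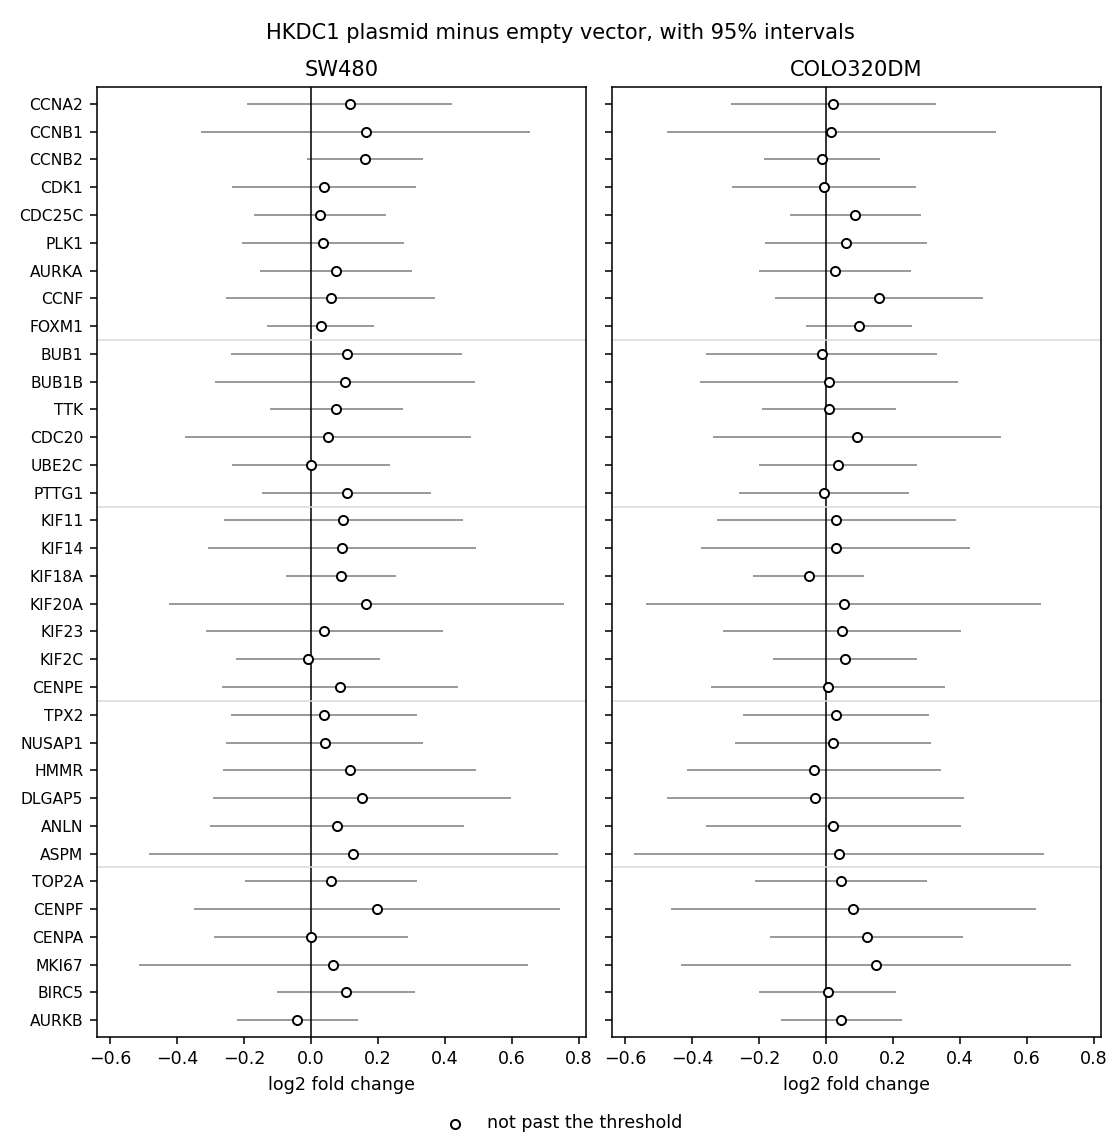
Log2 fold change of each member, HKDC1 plasmid minus empty vector, with its 95% interval, in SW480 (left) and COLO320DM (right), from the fit without the replicate block. Open circles mark members not past the threshold, which are all 34 in both lines, and the estimates run from −0.04 to 0.20 in SW480 and from −0.05 to 0.16 in COLO320DM.

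Because replicate 1 stood apart in both plasmid groups of a line, libraries of the same number were also compared as pairs. In SW480, members were higher with HKDC1 in 26, 30 and 28 of 34 cases in pairs 1, 2 and 3, with median log2 differences of 0.04, 0.102 and 0.094. The all-gene shares were 48.2%, 49.4% and 49.9%. Higher in all 3 pairs were 20 of 34 members, beside 14.0% of all genes, and AURKB alone was lower in all 3. In COLO320DM the counts were 20, 30 and 25 with medians of 0.013, 0.046 and 0.049, beside 47.2%, 50.8% and 48.5% of all genes. There 12 of 34 were higher in all 3 pairs, beside 13.4% of all genes, with DLGAP5 alone lower in all 3. Matching replicates 2 and 3 by number rests on the labels alone, since they correlated as strongly across numbers as within them. Pairs 2 and 3 may not be independent.

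With the replicate block the 95% intervals narrowed to a median of 0.12 to either side, and still 0 members passed in either line (background 0.76% in SW480 and 0.076% in COLO320DM), nor in the difference between the lines (0.0422%). Unadjusted p was under 0.05 for 9 of 34 members in SW480, beside 2360 of all 23684 genes. In COLO320DM it was under 0.05 for 1 of 34 members, beside 1290 of all genes. CENPF, a large kinetochore protein of G2 and mitosis (ENSG00000117724, chr1:214603195-214664571, plus strand), had 373, 218 and 241 CPM in the HKDC1 libraries, against 358, 190.5 and 178 CPM with empty vector. Replicate 1 was the highest in both groups, and replicates 2 and 3 were higher with HKDC1 than with empty vector (log2 fold change 0.23, SE 0.06, adjusted p = 0.0644 with the block). KIF20A, a kinesin of the midzone and cytokinesis (ENSG00000112984, chr5:138178719-138187723, plus strand), had 145, 77.3 and 93.6 CPM in the HKDC1 libraries, against 147, 66.2 and 67.9 CPM with empty vector. CCNB1, the main mitotic cyclin (ENSG00000134057, chr5:69167135-69178245, plus strand), had 249.99, 159 and 171 CPM in the HKDC1 libraries, against 248.83, 128 and 141 CPM with empty vector. In both, the 2 groups were level in replicate 1 and apart in replicates 2 and 3. With the block and without SW480 replicate 1, these 3 of 34 members passed the test, beside 2.3% of all genes in that fit: KIF20A (log2 fold change 0.33, SE 0.08, adjusted p = 0.0069), CENPF (0.30, SE 0.07, adjusted p = 0.00984) and CCNB1 (0.28, SE 0.07, adjusted p = 0.0168). Leaving out COLO320DM replicate 1 gave 0 calls there. With the block and any 1 replicate number left out, the member median stayed at 0.064 to 0.085 in SW480 and 0.024 to 0.041 in COLO320DM. Without the block, leaving out 1 library moved the SW480 median of members between −0.078 and 0.23, and the COLO320DM median between −0.008 and 0.081, so without pairing the direction of the median rested on single libraries.

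Differences by replicate number were larger than those by plasmid. In SW480, replicate 1 was higher than replicates 2 and 3 for all 34 members, with a median log2 difference of 0.394, and 28 of 34 rose past the threshold while 0 fell (edgeR with plasmid group and replicate number in the model). Of all genes, 22% were called higher and 22.2% lower, with a median of −0.017. In COLO320DM the median was 0.136, 16 of 34 members rose and 1 fell, beside 10.8% of all genes called higher and 11.8% lower. The labels do not say what a replicate number stands for, and replicate 1 was singled out because earlier results of these data showed it apart. The comparison rests on 1 replicate number per line, and its test uses the spread left after plasmid group and replicate number. Its p-values, and those of the difference between the lines below, therefore do not measure the spread between replicates. Summed over members, SW480 had 5798 and 5683 CPM in replicate 1 (HKDC1, then empty vector), against 4271, 4414, 3962 and 4061 CPM in replicates 2 and 3. COLO320DM had 4618 and 4556 CPM in replicate 1, against 4288, 4307, 4166 and 4146 CPM.

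Among the entry regulators, 6 of 9 rose in SW480 replicate 1. Within each set of libraries, values are given with HKDC1 first and then with empty vector. CCNB1 had 249.99 and 248.83 CPM in replicate 1, against 159, 171, 128 and 141 CPM in replicates 2 and 3 (1.68-fold, 95% interval 1.54 to 1.83, log2 fold change 0.75, SE 0.06, adjusted p = 7.44e-13). CDK1, the kinase that CCNB1 activates, had 176 and 166 CPM in replicate 1, against 142, 135, 133 and 141 CPM in replicates 2 and 3. Replicate 1 was above all 4 other libraries for both genes, by a larger margin for the cyclin (0.75) than for the kinase (0.31). CCNF (0.43), CCNA2 (0.39), the spindle-pole kinase AURKA (0.25) and the Polo kinase PLK1 (0.23) also rose. FOXM1, CCNB2 and CDC25C did not pass (0.03, 0.03 and 0.09). FOXM1 had 184 and 186 CPM in replicate 1, against 179, 189, 174 and 180.05 CPM in replicates 2 and 3, so its libraries overlapped.

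All 6 checkpoint and degradation genes rose in SW480 replicate 1. CDC20, the APC/C activator that the checkpoint holds, had 192 and 202 CPM in replicate 1, against 126, 145, 118 and 127 CPM in replicates 2 and 3 (log2 fold change 0.62, SE 0.06, adjusted p = 1.4e-10). BUB1, a kinetochore checkpoint kinase, had 212 and 205 CPM in replicate 1, against 148, 156, 136 and 138 CPM in replicates 2 and 3. BUB1B (BUBR1), its partner in the checkpoint complex, had 117 and 112 CPM in replicate 1, against 79.0, 83.2, 74.9 and 72.8 CPM in replicates 2 and 3. For all of these both replicate 1 libraries exceeded the other 4. The log2 differences were 0.56 for BUB1B, 0.53 for BUB1, 0.35 for securin (PTTG1), 0.27 for UBE2C and 0.19 for the checkpoint kinase TTK (MPS1), whose adjusted p of 0.0167 was the largest of the 6.

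Of the kinesins, 6 of 7 rose in SW480 replicate 1. KIF20A had the largest change of any member, with 145 and 147 CPM in replicate 1, against 77.3, 93.6, 66.2 and 67.9 CPM in replicates 2 and 3 (1.93-fold, 95% interval 1.76 to 2.12, log2 fold change 0.95, SE 0.07, adjusted p = 2.15e-14). KIF23, the motor of the centralspindlin complex, had 136 and 135 CPM in replicate 1, against 94.3, 95.3, 89.5 and 92.6 CPM in replicates 2 and 3. KIF11 (Eg5), which pushes spindle poles apart, had 149.7 and 146 CPM in replicate 1, against 116, 109.7, 97.2 and 108 CPM in replicates 2 and 3. Replicate 1 was above the other libraries for each. KIF14 (0.48), the kinetochore motor CENPE (0.35) and KIF2C (0.24) also rose, and KIF18A did not pass (0.07, adjusted p = 0.428).

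All 6 spindle and cytokinesis genes rose in SW480 replicate 1. ASPM, a spindle-pole protein (ENSG00000066279, chr1:197084127-197146694, minus strand), had 149 and 142 CPM in replicate 1, against 84.2, 87.7, 80.0 and 71.3 CPM in replicates 2 and 3 (1.81-fold, 95% interval 1.66 to 1.97, log2 fold change 0.85, SE 0.06, adjusted p = 5.32e-14). DLGAP5 (HURP), which stabilizes kinetochore fibres, had 117 and 112 CPM in replicate 1, against 76.7, 76.1, 62.3 and 68.6 CPM in replicates 2 and 3 (0.69). TPX2 had 429 and 430.0 CPM in replicate 1, against 335, 334, 312 and 327 CPM in replicates 2 and 3 (0.39). Both replicate 1 libraries were above all 4 others in these genes and in ANLN (0.56), HMMR (0.56) and NUSAP1 (0.42). Of the 6 chromosome genes 4 rose. MKI67, the gene of the Ki-67 proliferation antigen (ENSG00000148773, chr10:128096659-128126423, minus strand), had 395 and 416 CPM in replicate 1, against 219.6, 249.35, 227 and 182 CPM in replicates 2 and 3 (1.85-fold, 95% interval 1.65 to 2.08, log2 fold change 0.89, SE 0.08, adjusted p = 1.31e-08). CENPF had 373 and 358 CPM in replicate 1, against 218, 241, 190.5 and 178 CPM in replicates 2 and 3 (0.83). TOP2A (0.34) and the centromeric histone gene CENPA (0.37) rose as well, while the passenger genes AURKB (0.12) and BIRC5 (0.02) did not pass.

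By rank, SW480 HKDC1 replicate 1 was the highest of the 6 SW480 libraries for 23 of 34 members and empty-vector replicate 1 for 7, beside 21.6% and 18.1% of all genes. Empty-vector replicate 2 was the lowest for 23 of 34, beside 18.7% of all genes. Both replicate 1 libraries lay above all 4 others for 30 of 34 members, beside 27.1% of all genes. The exceptions were CCNB2, FOXM1, KIF18A and BIRC5. Scaling mattered for the size of this difference. With library totals only and no scaling factor, the median of all genes in SW480 replicate 1 moved to −0.155, and 35.3% of all genes were higher. The member median was then 0.256, 28 of 34 members were higher and 23 passed. The share of all genes that passed in that fit is not given here. No member fell past the threshold under either scaling.

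**Figure D3:**
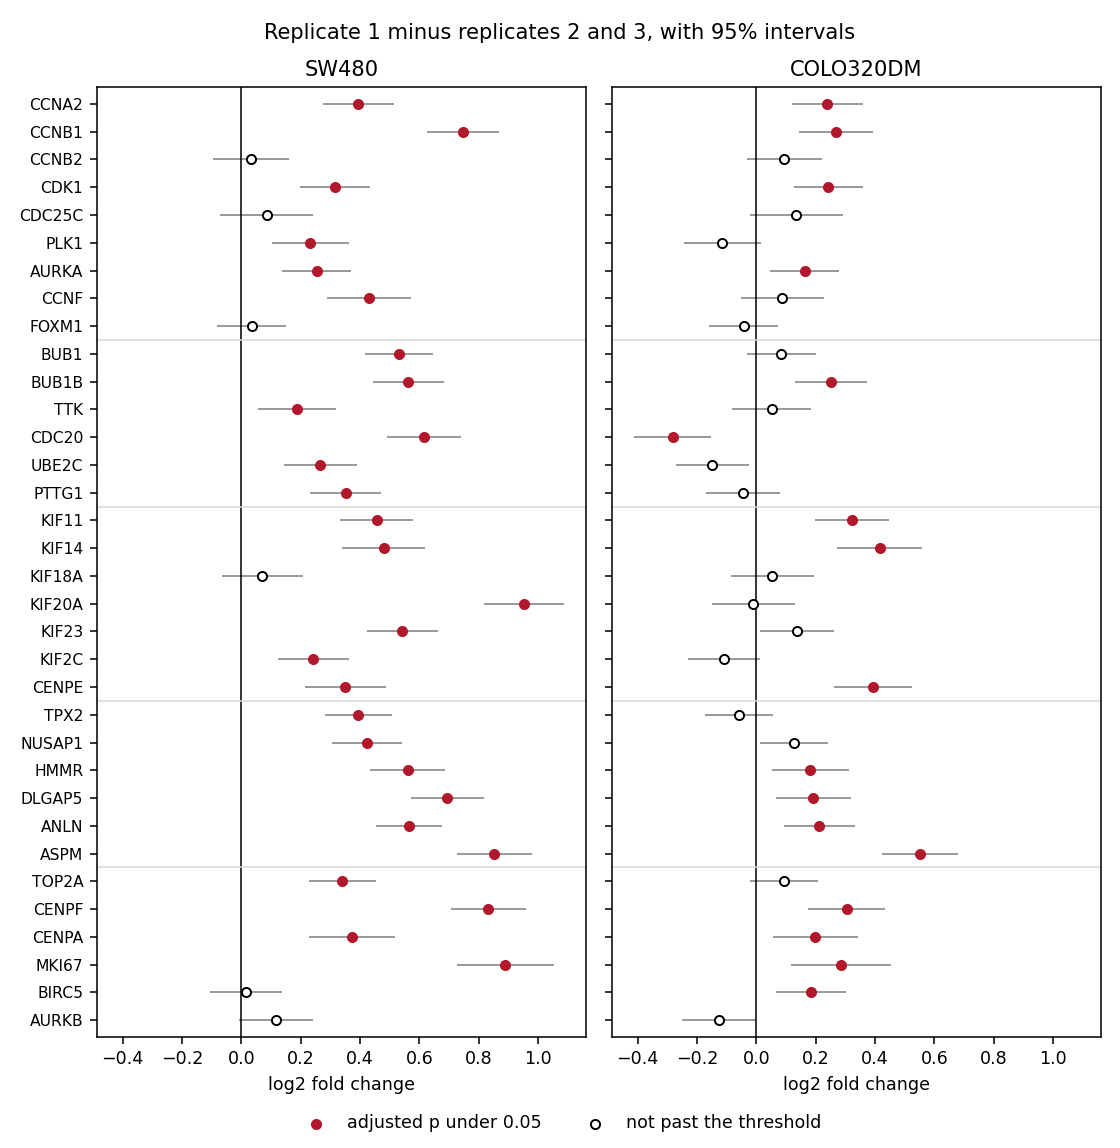
Log2 fold change of each member, replicate 1 minus replicates 2 and 3, with its 95% interval, in SW480 (left) and COLO320DM (right), from the fit with plasmid group and replicate number. Filled circles passed at an adjusted p under 0.05, which are 28 members in SW480 and 17 in COLO320DM, and CDC20 lies to the right of 0 in SW480 and to the left in COLO320DM.

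In COLO320DM the replicate 1 difference was smaller and mixed. ASPM again led, with 93.5 and 97.6 CPM in replicate 1, against 68.2, 67.4, 64.4 and 61.1 CPM in replicates 2 and 3 (1.47-fold, 95% interval 1.34 to 1.6, log2 fold change 0.55, SE 0.06, adjusted p = 4.86e-08). CENPE had 145 and 165 CPM in replicate 1, against 119, 128, 115 and 109.9 CPM in replicates 2 and 3 (0.39). KIF14, needed for cytokinesis, had 42.2 and 46.1 CPM in replicate 1, against 34.2, 35.2, 33.2 and 30.2 CPM in replicates 2 and 3 (0.42). Replicate 1 lay above the other libraries in each of these genes. It also did so for KIF11, with 109 and 108 CPM in replicate 1, against 86.6, 89.4, 86.5 and 84.7 CPM in replicates 2 and 3 (0.32). CDC20 was the 1 member that fell, with 85.4 and 73.5 CPM in replicate 1, against 98.0, 97.6, 94.3 and 95.7 CPM in replicates 2 and 3 (0.822-fold, 95% interval 0.751 to 0.9, log2 fold change −0.28, SE 0.06, adjusted p = 0.00129). Both replicate 1 libraries were below the rest. UBE2C had 117 and 105 CPM in replicate 1, against 124, 121, 119 and 128 CPM in replicates 2 and 3 (−0.15), and AURKB had 78.3 and 72.2 CPM in replicate 1, against 82.9, 82.1, 80.1 and 83.5 CPM in replicates 2 and 3 (−0.13). Neither passed the test, nor did PLK1 (−0.11). PLK1 had 175 and 145 CPM in replicate 1, against 170.1, 171, 172 and 177 CPM in replicates 2 and 3, so its low mean came from empty-vector replicate 1, and without that library the value was 0.036. Both replicate 1 libraries lay above all others for 22 of 34 members (20.5% of all genes) and below them for 6 (21.3%). The median of members stayed at 0.121 to 0.161 whichever library was left out. For fits with 1 replicate 1 library left in the line, the share of all genes called is not given here. Fewer members were called without COLO320DM empty-vector replicate 1. Without that library CENPE was at 0.23 (adjusted p = 0.0901), KIF14 at 0.28 (adjusted p = 0.0641) and CDC20 at −0.20 (adjusted p = 0.195), all by edgeR. Without HKDC1 replicate 1, UBE2C (−0.23, adjusted p = 0.0431) and PLK1 (−0.27, adjusted p = 0.0176) passed as lower. By role, 4 of 9 entry regulators, 1 of 6 checkpoint genes, 3 of 7 kinesins, 4 of 6 spindle genes and 4 of 6 chromosome genes rose.

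The test of the difference between the lines in the replicate 1 effect called 21 of 34 members, all more positive in SW480, beside 13.5% of all genes in that direction and 10.9% in the other. It was largest for KIF20A (0.96, SE 0.10, adjusted p = 1.37e-09) and CDC20 (0.90, SE 0.09, adjusted p = 8.98e-10). In COLO320DM the KIF20A libraries overlapped, with 89.5 and 86.3 CPM in replicate 1, against 94.2, 86.4, 90.9 and 83.1 CPM in replicates 2 and 3. CCNA2, CDK1, AURKA, KIF11, KIF14, KIF18A, CENPE, CENPA, TTK, FOXM1, CCNB2, CDC25C and BIRC5 were not called in this test. The estimates of CENPE, CCNB2, CDC25C and BIRC5 were below 0 (−0.04, −0.06, −0.05 and −0.17).

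Measures of the libraries moved with the replicate number too. Mitochondrial genes took 7.17% and 7.40% of counts in SW480 replicate 1, against 6.32% to 6.48% in replicates 2 and 3, and 9.40% and 8.90% in COLO320DM replicate 1, against 7.59% to 7.80%. The replicate 1 difference also followed GC content. Over 7876 genes in the members' range of levels, Spearman's rank correlation between the difference and the GC content of the longest transcript was −0.20 in SW480 and −0.59 in COLO320DM, and over the 34 members −0.23 and −0.65. Genes share their libraries, so these are descriptions with no test. In SW480 the 9 members below 40% GC had a median of 0.456 beside 0.141 for 1454 genes of that GC, and the 5 members of 55% to 60% GC had 0.233 beside 0.001. Relative to a mean curve on length and GC fitted to those 7876 genes, 30 of 34 members were above it in SW480 with a median of 0.298. In COLO320DM 23 of 34 were above it with a median of 0.055. The share of all genes above the curve is not given here, so these counts have no background. The part of the mitochondrial share in the member differences was not tested.

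**Figure D4:**
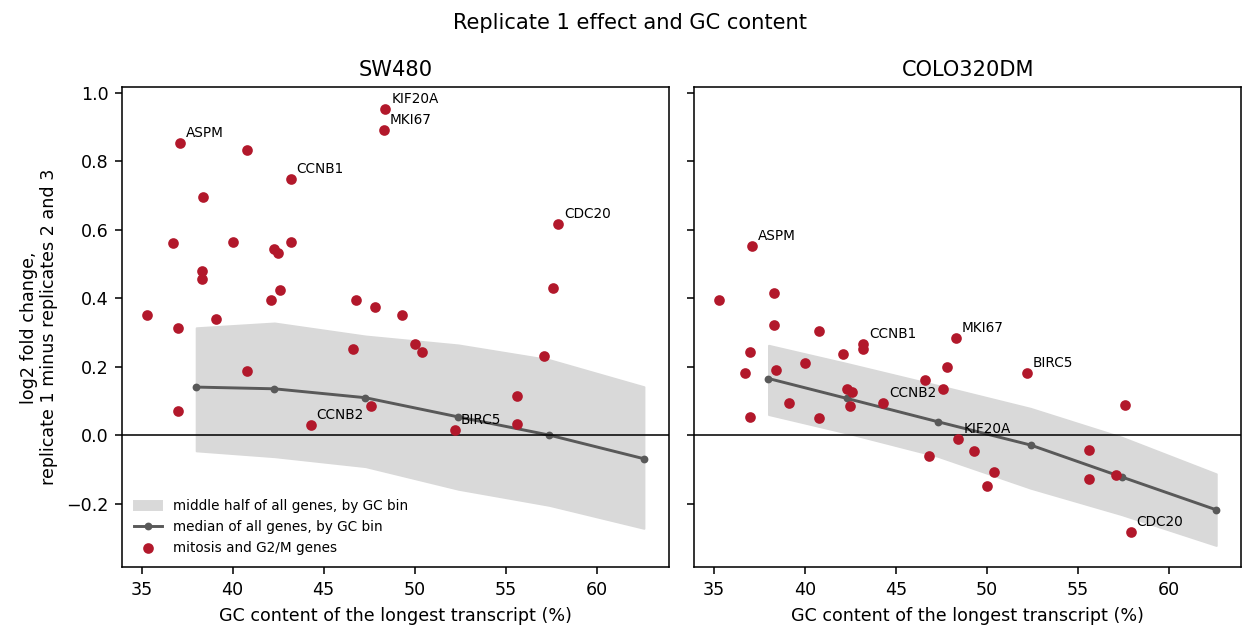
Replicate 1 difference (log2) against the GC content of the longest transcript, in SW480 (left) and COLO320DM (right). Red points are the 34 members, the grey line is the median and the band runs from the lower to the upper quartile of all genes in the members' range of levels, by GC bin. Most members lie above the grey line in SW480 and follow the falling line in COLO320DM.

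Some mitotic genes differed between the lines, at a smaller share than of all genes without the block, and the whole set did not shift. With empty vector, 17 members were higher in SW480 and 17 lower than in COLO320DM, with a median log2 difference of 0.053 (0.039 over all genes). The test called 7 members higher and 8 lower in SW480, beside 37.3% and 34.3% of all genes. Pairing the replicates gave 16 members higher and 10 lower, beside 42% and 39.5% of all genes. The 15 of 34 members called without the block (44.1%) lay below the 71.6% of all genes. The lines did not overlap for 8 members higher in SW480 and 8 lower, beside 38% and 35.3% of all genes. The colon epithelial marker sums given above differed between the lines as well, and their part in the member differences was not tested.

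ANLN (anillin), which organizes the contractile ring (ENSG00000011426, chr7:36389821-36453791, plus strand), differed most, with 323, 215 and 217 CPM in SW480, against 69.2, 59.5 and 56.7 CPM in COLO320DM (4.07-fold, 95% interval 3.1 to 5.35, log2 fold change 2.03, SE 0.18, adjusted p = 3.56e-07). KIF23 had 135, 89.5 and 92.6 CPM in SW480, against 57.4, 48.9 and 51.7 CPM in COLO320DM (log2 fold change 1.00, SE 0.17, adjusted p = 0.000112). MKI67 had 416, 227 and 182 CPM in SW480, against 178, 148 and 137 CPM in COLO320DM (log2 fold change 0.83, SE 0.27, adjusted p = 0.0142). The lines did not overlap for these genes, but MKI67 lost its call without the filter on low counts (0.815, adjusted p = 0.078), without SW480 replicate 1 (0.424, adjusted p = 0.0853) and without COLO320DM replicate 3 (0.754, adjusted p = 0.0557). CDC20 had 202, 118 and 127 CPM in SW480, against 73.5, 94.3 and 95.7 CPM in COLO320DM (log2 fold change 0.76, SE 0.20, adjusted p = 0.00373). Without SW480 replicate 1 the CDC20 value was 0.497 and stayed past the threshold (adjusted p = 0.0105). PTTG1 (0.56), KIF14 (0.54) and KIF18A (0.29) were also called higher in SW480.

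CENPE was the member most below COLO320DM, with 85.7, 64.8 and 63.8 CPM in SW480, against 165, 115 and 109.9 CPM in COLO320DM (0.549-fold, 95% interval 0.43 to 0.702, log2 fold change −0.86, SE 0.16, adjusted p = 0.000353). NUSAP1, which bundles spindle microtubules, had 128, 92.9 and 95.8 CPM in SW480, against 201, 185 and 183 CPM in COLO320DM (log2 fold change −0.84, SE 0.14, adjusted p = 9.34e-05). BIRC5 had 89.9, 80.4 and 92.1 CPM in SW480, against 155, 140.2 and 143 CPM in COLO320DM (log2 fold change −0.74, SE 0.10, adjusted p = 1.16e-05). All SW480 libraries lay below all COLO320DM libraries in these 3 genes. BUB1B had 112, 74.9 and 72.8 CPM in SW480, against 143, 118 and 111 CPM in COLO320DM, so the groups overlapped through SW480 replicate 1 (log2 fold change −0.52, SE 0.18, adjusted p = 0.019), and the call was lost in 3 of the 6 fits that left out 1 library. PLK1 (−0.48), CCNF (−0.46), CDK1 (−0.33) and CCNB2 (−0.30) were the other lower calls. They were the 4 calls among the 9 entry regulators without the block, beside 34.3% of all genes called lower. With the replicate block, edgeR called CCNB1 (0.28, adjusted p = 3.66e-05), AURKA (0.18, adjusted p = 0.00276) and CDC25C (0.20, adjusted p = 0.0128) higher in SW480. It called 5 of the 9 lower, beside 42% of all genes called higher and 39.5% lower. These counts of 9 genes are too few to set a direction for the entry regulators. Levels close to equal in the 2 lines were seen for AURKB, with 82.4, 74.8 and 77.6 CPM in SW480, against 72.2, 80.1 and 83.5 CPM in COLO320DM, and for KIF2C (−0.01).

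**Figure D5:**
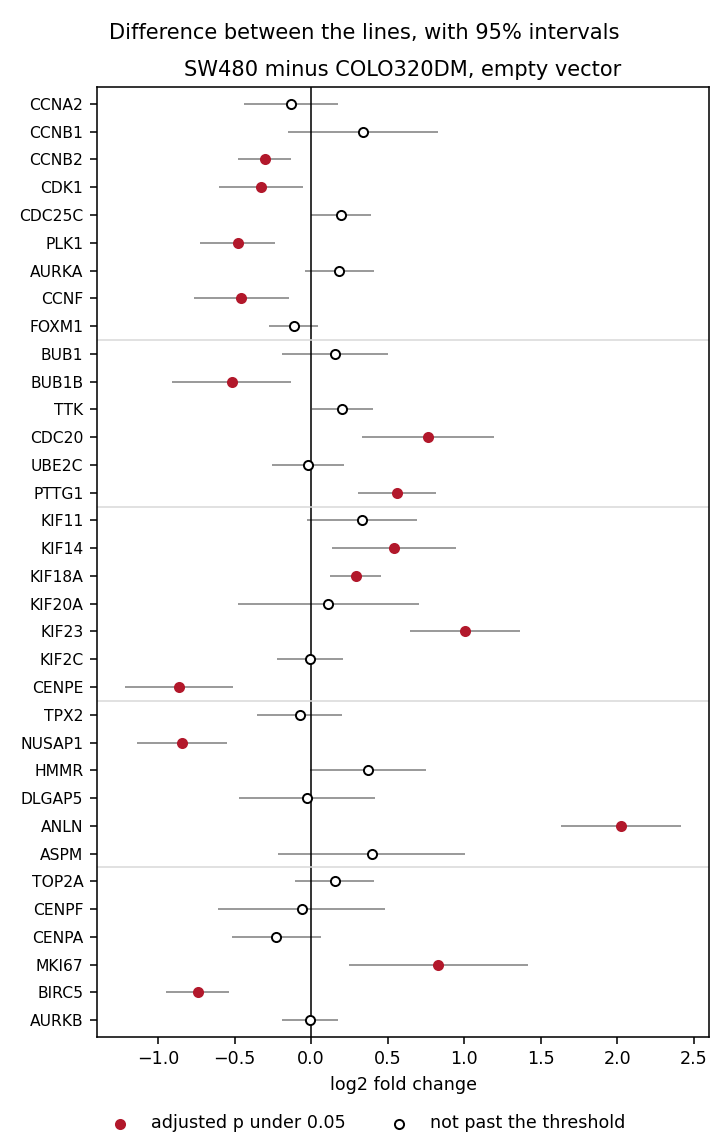
Log2 fold change of each member, SW480 minus COLO320DM with empty vector, with its 95% interval, from the fit without the replicate block. Filled circles passed at an adjusted p under 0.05, 7 to the right of 0 and 8 to the left, with ANLN at 2.03 standing clear of the rest.

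Library values not yet given follow for further members, and their layouts differed. In SW480, AURKA had 161, 135 and 139.8 CPM in the HKDC1 libraries, against 156, 126 and 132 CPM with empty vector, and PTTG1 had 151, 123 and 121 CPM in the HKDC1 libraries, against 146, 107 and 114 CPM with empty vector. TTK had 90.2, 81.9 and 76.6 CPM in the HKDC1 libraries, against 85.8, 72.5 and 77.7 CPM with empty vector. In each, empty-vector replicate 2 was the lowest library and HKDC1 replicate 1 the highest. TOP2A had 654, 505 and 501 CPM in the HKDC1 libraries, against 607, 489.9 and 497 CPM with empty vector, and CENPA had 40.1, 30.4 and 28.975 CPM in the HKDC1 libraries, against 38.2, 29.9 and 31.4 CPM with empty vector. In COLO320DM, TOP2A had 506, 492 and 482 CPM in the HKDC1 libraries, against 507, 469 and 457 CPM with empty vector, and TPX2 had 372, 379 and 399 CPM in the HKDC1 libraries, against 366, 377 and 382 CPM with empty vector, with overlapping plasmid groups in both genes and replicate 1 above the rest for TOP2A and below it for TPX2.

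Some member counts may hold reads of neighbours, since no strand setting is given in the sources used here. Exons of CCNA2, CDC25C, PLK1, CCNF, FOXM1, KIF20A, KIF23, KIF2C, NUSAP1, HMMR and ANLN overlap exons of a gene on the opposite strand, and those of BUB1B, CENPA and NUSAP1 a gene on the same strand.

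A further 8 lists of cell-cycle genes, none of them members, were set beside the members, with all 169 of their genes tested. For the HKDC1 plasmid no gene of any list passed in either line without the block. In SW480 replicate 1, where 22% of all genes were called higher and 22.2% lower, 27 of 34 DNA replication and G1/S genes rose and 0 fell, with a median of 0.399, led by MCM4 (0.88), FEN1 (0.83) and PCNA (0.76), parts of the replication machinery. Of the centrosome, spindle and cytokinesis partners 20 of 28 rose and 1 fell (median 0.338), and of the kinetochore and checkpoint partners 19 of 31 rose and 1 fell (0.219). Condensin, which compacts chromosomes, had 7 of 8 genes up and 0 down (0.298), and cohesin and its regulators 7 of 16 up and 1 down (0.154). APC/C subunits had 6 of 17 up and 4 down (0.117), and the DREAM and MMB genes 5 of 15 up and 3 down (0.102), counts of lower genes close to the all-gene share. Among the mitotic entry and exit controls 11 of 20 rose and 3 fell (0.168). The CDK inhibitor gene CDKN1A (p21) fell by 1.66 on the log2 scale (SE 0.09, adjusted p = 8.15e-18) and GADD45A, a stress gene that restrains G2/M, fell by 1.15 (SE 0.07, adjusted p = 5.72e-16). In COLO320DM replicate 1, where 10.8% of all genes were called higher and 11.8% lower, 21 of 34 replication and G1/S genes rose and 1 fell (CDT1, −0.65), beside 16 and 3 of 31 kinetochore genes, 5 and 1 of 28 centrosome genes and 4 and 0 of 8 condensin genes. Between the lines with empty vector, the replication list had 8 of 34 genes higher in SW480 and 7 lower, and the kinetochore list 8 of 31 higher and 12 lower, beside 37.3% of all genes called higher and 34.3% lower.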

How the data were processed

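The authors deposited 1 table of raw counts of reads per gene for all 12 libraries, with a gene Length column per the file headers (unit other, in bases), which equalled the merged exon length of the annotation for 34 of 34 members. The submitters' processing notes list the tools HISAT2 2.1.0 and limma and the build GRCh38, without roles. The read counter, its strand setting and the annotation release are not given in the sources used here. Every column of the table was matched to a sample by its title or library name, and 0 columns were left unused.

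Counts were tested with edgeR 4.0.16 in R 4.3.3 (TMM scaling, genes kept by filterByExpr at a minimum count of 10 and a total of 15, robust quasi-likelihood test, Benjamini-Hochberg adjustment over all 23684 tested genes, threshold 0.05). The plasmid and line comparisons used 4 group means over 12 libraries (8 residual degrees of freedom), and the replicate 1 comparisons added the replicate number, nested in the line, as a block (4 residual degrees of freedom). SE is the log2 fold change divided by the root of F. CPM values use the TMM-scaled totals. DESeq2 1.42.0 and limma-voom (limma 3.58.1), other scalings, no filter and libraries left out were alternatives. DESeq2 and limma with the block, no scaling factor, the length and GC curve, and the test of the replicate 1 difference between lines were added after seeing the data. The fits were tested on simulated counts.

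The members, the 8 lists and the replicate 1 comparison were chosen with earlier results of these data known. Named genes are the 3 members of smallest p each way per plasmid comparison, the 4 of largest change each way in the other comparisons, and others for their role. CENPF, KIF20A and CCNB1 in the paired plasmid fit were singled out after their values were seen. The labels do not say that replicates were separate cultures, so p-values reflect only the spread among these samples, which may be technical. The numbers were taken as pairs because the plasmid groups of a line share them and replicate 1 stood apart in both. Deviations from the group means, HKDC1 against empty vector, correlated over genes between libraries of the same replicate number. The r was 0.72, 0.44 and 0.31 in SW480 and 0.40, 0.13 and 0.12 in COLO320DM. Between replicate 2 of 1 plasmid and replicate 3 of the other, r was just as high, at 0.47 and 0.37 in SW480 and 0.16 and 0.15 in COLO320DM. Deviations within a group are tied to each other, so replicate 1 sets part of those of replicates 2 and 3. These r therefore cannot tell whether replicates 2 and 3 match by number. Library totals were 33790733 to 45451279 counts, and every member averaged above 20 CPM in every group.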

Additional observations from a re-analysis of the deposited data

Results flagged for a closer look

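The replicate 1 difference itself differed between the lines for 21 of 34 members, by the edgeR test of that difference (SW480 minus COLO320DM, log2, adjusted p under 0.05), beside 13.5% of all genes in the same direction. All 21 were more positive in SW480, and the test rests on 1 replicate number per line. Among the entry regulators these were CCNB1 (0.48), PLK1 (0.35) and CCNF (0.34). Among the checkpoint and degradation genes they were CDC20 (0.90), BUB1 (0.45), UBE2C (0.41), PTTG1 (0.40) and BUB1B (0.31). The kinesins were KIF20A (0.96), KIF23 (0.41) and KIF2C (0.35). All 6 spindle and cytokinesis genes were among them, DLGAP5 (0.50), TPX2 (0.45), HMMR (0.38), ANLN (0.35), NUSAP1 (0.30) and ASPM (0.30). The chromosome genes were MKI67 (0.60), CENPF (0.53), TOP2A (0.25) and AURKB (0.24). SEs were 0.08 to 0.11, and the largest adjusted p was 0.037 for AURKB. Of the 6 spindle genes none missed the threshold, while 6 of 9 entry regulators did. Leaving out 1 library gave 15 to 21 such members, and library totals without a scaling factor gave 14.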

How the results depend on the processing

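Over all alternatives run, 360 values of the main results stayed within their spread, or for counts within a set factor, and 21 moved. A count could therefore change and still be among the 360, and plasmid counts that stayed at 0 are among them too. Of single genes, 495 kept direction and side of the threshold, 9 lost a call, 4 gained one and 20 changed sign, and the cause was not tested. With the replicate block, SW480 against COLO320DM gave 16 members higher by edgeR, DESeq2 and limma-voom, against 7 without it, and the block changed no plasmid count (0 in either line). With the block and 1 replicate number left out, the line comparison gave 9 to 17 members higher and 9 to 14 lower, and the SW480 plasmid comparison 0 to 3 higher, the 3 being without SW480 replicate 1. Leaving out 1 library without the block gave 5 to 11 higher and 5 to 9 lower between the lines. It gave 2 to 13 higher and 0 to 3 lower for replicate 1 in COLO320DM, where 2 and 0 were without empty-vector replicate 1. Without a scaling factor, 2 members were called lower in COLO320DM replicate 1, and 1 in the difference between lines. For the SW480 plasmid fit with the block and without replicate 1, 2.3% of all genes were called. For the other leave-out fits, here and above, the share of all genes called is not given, so their member counts have no background. In the plasmid comparisons, sign changes among the named genes were at small values. With HKDC1 in COLO320DM, HMMR ranged from −0.092 to 0.073 (−0.081 to 0.055 with the block) and CCNB2 from −0.053 to 0.012 (−0.028 to 0.012). In SW480, AURKB ranged from −0.083 to 0.008, KIF2C from −0.106 to 0.062 (−0.05 to 0.017) and UBE2C from −0.084 to 0.101 (−0.025 to 0.013, and 0.004 without SW480 replicate 1), and UBE2C was 0.002 with the replicate block, with limma-voom and with both. The change was larger for PLK1 in COLO320DM replicate 1, from −0.269 without HKDC1 replicate 1 to 0.036 without empty-vector replicate 1. Within the 150 bases before to 50 after the start, CHR letters were in 18 of 28 members (64.3%, beside 10.3% of all promoters) and CCAAT in 22 (78.6%, beside 27.5%).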

Other observations

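In the paired fit of SW480, some genes of DNA replication and G1/S rose with HKDC1. Of 34 such genes 33 were higher with HKDC1, with a median log2 fold change of 0.166, and 5 rose past the threshold (edgeR with the replicate block, adjusted p under 0.05), beside 0.76% of all genes called in either direction. MCM4, a subunit of the replicative helicase, rose by 0.28 (adjusted p = 0.0138). UNG, the uracil DNA glycosylase, rose by 0.31 (adjusted p = 0.0181), and PCNA, the sliding clamp of DNA polymerases, rose by 0.24 (adjusted p = 0.0196). GADD45A fell by 0.28 (adjusted p = 0.0178) and was the 1 gene of the other 7 lists that passed. In COLO320DM the same list had a median of 0.04, with 25 of 34 higher and 0 past the threshold, and 0 genes of any list passed without the block in either line. The edgeR test of the difference between the lines, SW480 minus COLO320DM, called 0 of the 34 genes with the block (smallest adjusted p = 0.404), with 30 more positive in SW480 and a median difference of 0.091. In the same SW480 fit 31 of 34 mitotic members were higher (median 0.085), beside 50.3% of all genes. Of these members 9 had an unadjusted p under 0.05, beside 2360 of all 23684 genes, and 0 passed.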
